A study of Mus musculus with 6 samples.

Results

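Kinesins are motor proteins that walk along microtubules or shorten them at their ends, using ATP. One branch of the superfamily builds the spindle, moves chromosomes and completes cytokinesis, and its genes are switched on as cells approach division. Another carries cargo such as vesicles, mitochondria and, in pigment cells, melanosomes along the microtubules of cells outside mitosis, cycling cells included. The genes described here are the 37 of 22740 in the deposited table whose symbol is Kif followed by a number. Of these, 12 were grouped as mitotic, 13 as transport motors of the kinesin-1, kinesin-2 and kinesin-3 families, 6 as motors of cilia and centrioles and 5 as motors of microtubule ends and signalling, from textbook roles. Kif12 was left in no group. Kifc genes, Kifap3 and Cenpe do not carry such a symbol and are given only as partners.

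RNA was sequenced from B16, a mouse melanoma cell line (B16-F10 in the design text, BRAFV600E-negative in the labels), in 3 libraries treated for 3 days with DMSO, the vehicle, and 3 treated as long with 1 uM CX-5461. The compound is known as an inhibitor of RNA polymerase I, which transcribes ribosomal RNA. All 6 libraries share the line and genotype, and nothing in the labels says whether replicates were separate cultures, so the p-values measure only the spread between these libraries. Counts of replicate pairs differed by more than sampling noise, with ratios of chi-square to its degrees of freedom between 1.57 and 2.56 for DMSO and between 5.65 and 9.40 for CX-5461. Of 7 melanocyte markers all exceeded 1 CPM (counts scaled to the size of the library). All 7 also rose with CX-5461 (adjusted p below 0.05, edgeR quasi-likelihood test), where 37.2% of all tested genes did. Their sum was 22070 to 22920 CPM with DMSO and 28240 to 30540 CPM with CX-5461. Markers of other cell types were likewise summed over each list. The 4 keratinocyte markers reached at most 0.0505 CPM and the 3 endothelial ones at most 0.289 CPM in any library. The 5 fibroblast markers were at 12.5 to 16.5 CPM with DMSO, against 30.9 to 34.4 CPM with CX-5461. Of these Col1a2 rose, from 2.22 to 25.0 CPM, while Col1a1 fell by 1.30 and Pdgfra by 0.37 on the log2 scale. The 5 leukocyte markers were at 0.382 to 1.45 CPM and 3.29 to 5.18 CPM, nearly all of it Lyz2, which rose from 0.871 to 4.20 CPM, with Cd3e and Itgam at 0. The 5 neuronal markers were at 60.0 to 63.2 CPM and 162.0 to 201.1 CPM. Of these Tubb3 rose from 58.2 to 173.8 CPM and Map2 from 2.93 to 6.27 CPM, with Snap25 at 0. Mitochondrial genes took 1.70% to 1.84% of counts with DMSO, and 2.70% to 3.40% with CX-5461. The part of these markers and of the mitochondrial share in the results below was not tested.

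Of the 37 kinesin genes 33 had enough counts to be tested. With CX-5461, 20 of them rose, 4 fell and 9 did not pass an adjusted p of 0.05 (edgeR quasi-likelihood test), so 72.7% were called, close to the 73.7% called among all 12198 genes. The split by role was uneven. All 11 tested mitotic kinesins rose, with a median of 2.16-fold, where 37.2% of all genes were called higher. Kif2a, which acts at spindle poles as well as in interphase, was grouped with the motors of microtubule ends. With it added to the mitotic list, 11 of 12 were higher and 1 lower. Among 11 tested transport kinesins, 6 were called higher and the other 5 missed the threshold. Their median was 1.39-fold, or a log2 change of 0.47 that became -0.04 when the trend with genomic span was removed. The other 11 tested kinesins had 3 higher, 4 lower, where 36.5% of all genes were called lower, and 4 not called. Their median log2 change was -0.29. The median of all tested genes was -0.005. At least 2-fold higher and called were 8 of 11 mitotic and 1 of 11 transport kinesins, against 11.7% of all genes. No test was made of the difference between these lists, since genes are not replicates. In RNA from whole cultures, more cells in a given state and more transcript per cell cannot be told apart.

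**Figure D1:**
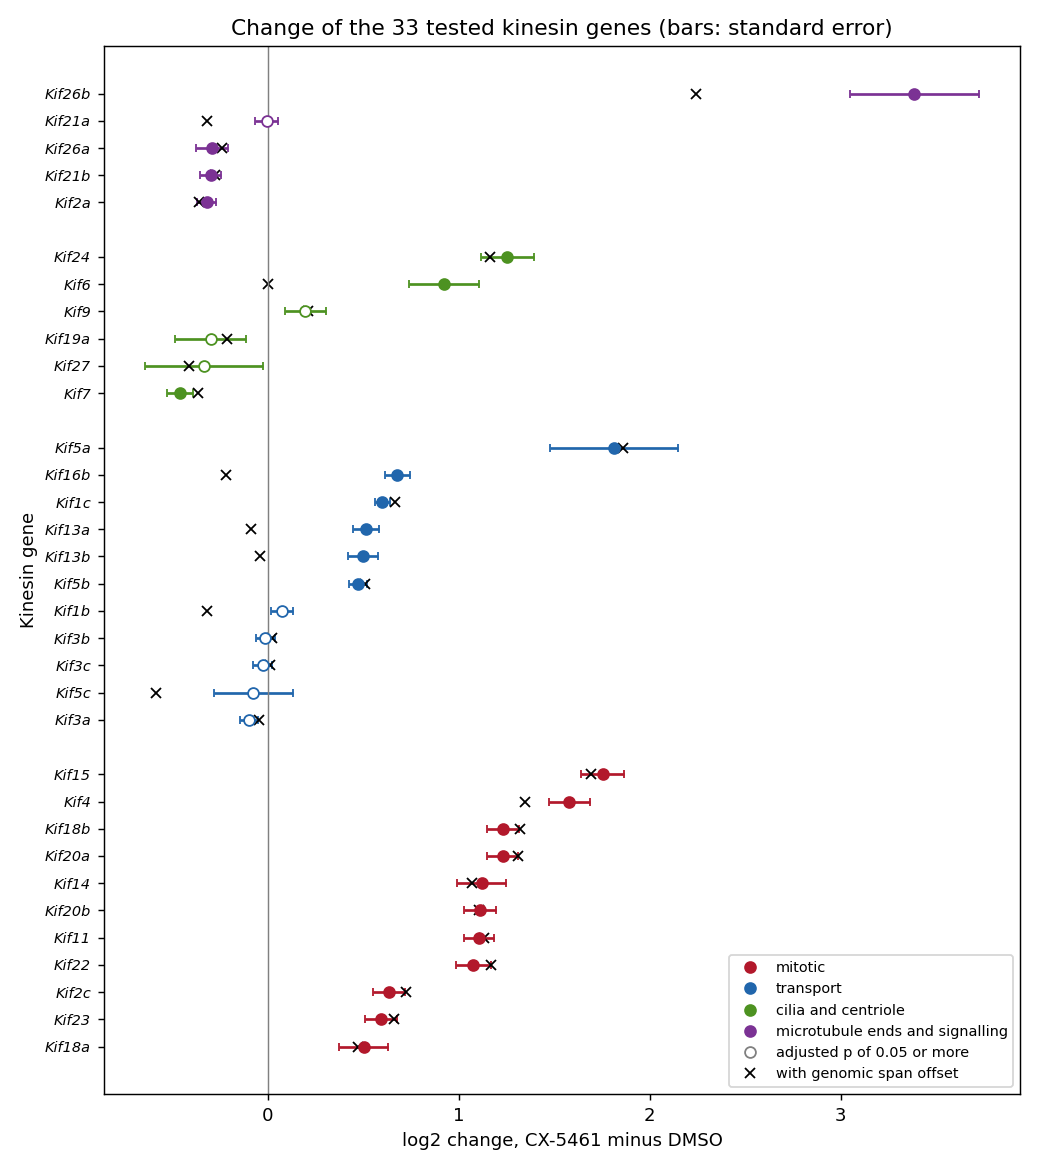
Log2 change with CX-5461 (x axis) of each of the 33 tested kinesin genes (y axis), coloured by role, with standard errors and open circles for genes that did not pass. Crosses give the change after an offset for genomic span. All 11 mitotic genes lie right of 0 by both measures, whereas Kif1b, Kif13a, Kif13b and Kif16b cross to the left with the offset.

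The promoters of the mitotic kinesins are shown because these genes moved together. RefSeq promoters (GRCm38.p6), running from 250 bases before the annotated start to 50 after it, were found for 31 of the 37 genes. They were searched on both strands for the letters TTTGAA, the core of the cell cycle genes homology region (CHR) through which the DREAM complex holds genes of mitosis silent in resting cells, for CCAAT, the box bound by NF-Y, and for TTNGCGC, a core of E2F sites. Matches to different motifs never overlapped in these promoters. The CHR letters were present in 9 of 11 mitotic promoters, those of Kif2c, Kif4, Kif11, Kif14, Kif15, Kif18b, Kif20b, Kif22 and Kif23, against 17.9% of all 32851 promoters. They were missing from those of Kif18a and of Kif2b, a gene without a count in any library. These 11 are thus not the 11 tested mitotic genes, since Kif20a, which rose, had no promoter among those found. In some the RefSeq start lies inside the gene as GENCODE draws it, by 1505 bases in Kif14, 3867 in Kif2c, 328 in Kif4, 51 in Kif22 and 35 in Kif15. Transport genes had 12 promoters for 10 genes, and the letters were present in 1 of them, 1 of 2 listed for Kif1a, whose start lies 19471 bases inside the gene. CCAAT was present in 7 of 11 mitotic and 4 of 12 transport promoters, against 37.4% of all, and the E2F letters in 2 of 11 and 1 of 12, against 6.36%. CHR letters were also in the promoters of Kif26b and Kif27. A match describes the letters and not a site in use. The 30 bases around the CHR letters nearest to the start are shown for 7 of the 9 genes, without Kif14 and Kif2c, 5′ to 3′ along the gene, with those letters in capitals (in Kif20b a further match follows directly). TTTGAA and TTCAAA are the same letters on the 2 strands.
Kif11 (chr19:37376351-37376380, plus strand): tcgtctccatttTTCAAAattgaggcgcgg
Kif15 (chr9:122951050-122951079, plus strand): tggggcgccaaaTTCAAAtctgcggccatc
Kif22 (chr7:127042420-127042449, minus strand): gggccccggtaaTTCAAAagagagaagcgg
Kif18b (chr11:102925104-102925133, minus strand): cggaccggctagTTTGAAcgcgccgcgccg
Kif20b (chr19:34922353-34922382, plus strand): gagccgccattgTTTGAAtttgaaaaccgg
Kif23 (chr9:61946780-61946809, minus strand): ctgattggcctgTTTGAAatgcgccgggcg
Kif4 (chrX:100626072-100626101, plus strand): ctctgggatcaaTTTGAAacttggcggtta

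The capitals began 19 bases before the RefSeq start in Kif11 and in Kif15, and 17 bases before it in Kif22. In Kif18b, Kif20b, Kif23 and Kif4 they began 3 to 20 bases after it. In the genes not shown the nearest CHR letters lay farther off, 228 bases before the RefSeq start in Kif14 and 103 bases before it in Kif2c. Longer stretches, the 150 bases before the start, are given for Kif11, for Kif18a, which held no CHR letters in its window, and for the transport gene Kif1c, whose stretch held none of the motifs. Here capitals mark every match: in Kif11 ATTGG is the CCAAT box and TTCAAA the CHR on the opposite strand, and in Kif18a GCGCCAA is the E2F core on the opposite strand.
Kif11 (chr19:37376232-37376381, plus strand): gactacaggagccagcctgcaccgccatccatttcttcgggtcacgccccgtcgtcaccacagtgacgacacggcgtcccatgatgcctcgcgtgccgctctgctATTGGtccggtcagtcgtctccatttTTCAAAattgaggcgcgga
Kif18a (chr2:109280588-109280737, plus strand): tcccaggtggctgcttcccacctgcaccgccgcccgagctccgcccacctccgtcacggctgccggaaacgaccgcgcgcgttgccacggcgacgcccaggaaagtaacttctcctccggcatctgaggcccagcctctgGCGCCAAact
Kif1c (chr11:70700398-70700547, plus strand): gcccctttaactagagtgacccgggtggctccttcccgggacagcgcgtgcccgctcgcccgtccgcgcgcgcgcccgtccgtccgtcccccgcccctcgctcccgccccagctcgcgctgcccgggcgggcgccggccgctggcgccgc

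The motors that set up the bipolar spindle rose. Kif15, a kinesin-12 that can stand in for Kif11 in keeping the poles apart, was at 8.90, 10.4 and 10.8 CPM in the 3 DMSO libraries and at 30.6, 31.2 and 39.9 CPM in the 3 CX-5461 libraries. It rose by 1.75 ± 0.11 (log2, SE, n = 3 per group, as for all changes given here; adjusted p = 1.41e-09), which is 3.37-fold and the largest change of a mitotic kinesin. Kif11, the kinesin-5 that slides antiparallel microtubules to push the poles apart, was at 27.2, 28.9 and 32.2 CPM with DMSO and 63.2, 57.2 and 69.2 CPM with CX-5461, a rise of 1.11 ± 0.08 (adjusted p = 4.21e-09). In both genes every treated library lay well above every control library.

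Both chromokinesins, which bind chromosome arms, rose as well. Kif4, which also shapes the central spindle, was at 11.1, 12.8 and 14.7 CPM with DMSO and 34.6, 37.2 and 43.7 CPM with CX-5461, a rise of 1.58 ± 0.10 (adjusted p = 2.21e-09). Its exons overlap those of Pdzd11 on the other strand by 832 bases, and Pdzd11 itself was at 60.6 and 58.2 CPM (adjusted p = 0.377). Kif22 was between 10.8 and 12.2 CPM in the 3 DMSO libraries and at 23.4, 22.0 and 26.2 CPM with CX-5461, a rise of 1.08 ± 0.09 (adjusted p = 4.46e-08). In both genes all treated libraries lay above all control libraries.

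Motors that act on microtubule ends in mitosis rose by differing amounts. Kif18b, which trims astral microtubules, was at 20.8, 20.8 and 20.1 CPM with DMSO and 45.1, 44.6 and 55.2 CPM with CX-5461, a rise of 1.23 ± 0.08 (adjusted p = 2.78e-09). Its relative Kif18a, which damps the swaying of chromosomes at the metaphase plate, was at 6.23, 6.95 and 8.26 CPM with DMSO and 8.82, 10.5 and 11.2 CPM with CX-5461, a rise of 0.50 ± 0.13 (adjusted p = 0.00243). For Kif18a the lowest treated library stood just above the highest control library. Kif2c, which depolymerises microtubules at centromeres, was at 21.3, 21.8 and 23.3 CPM with DMSO and 31.4, 33.2 and 38.6 CPM with CX-5461, a rise of 0.64 ± 0.08 (adjusted p = 4.76e-06). Kif2b, of the same subfamily, had no count in any library, which allows up to 0.135 to 0.173 CPM (3 counts, covering counting error only).

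The cytokinesis motors made up the rest of the mitotic group. Kif20a, which brings the chromosomal passenger complex to the midzone, was at 29.7, 32.3 and 33.9 CPM with DMSO and 72.2, 67.7 and 85.4 CPM with CX-5461, a rise of 1.23 ± 0.08 (adjusted p = 1.92e-09). Its exons overlap those of Cdc23 on the opposite strand by 1271 bases, and Cdc23 fell by 0.16 on the log2 scale (adjusted p = 0.0221). Kif20b was at 19.2, 21.7 and 20.7 CPM with DMSO and 43.7, 39.5 and 49.6 CPM with CX-5461, a rise of 1.11 ± 0.08 (adjusted p = 1.08e-08). In both genes the lowest treated library was well above the highest control library.

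Kif14, which acts in the intercellular bridge with citron kinase, was at 8.52, 8.40 and 9.60 CPM with DMSO and 17.96, 16.2 and 23.4 CPM with CX-5461, a rise of 1.12 ± 0.13 (adjusted p = 1.17e-06). Kif23, the motor of centralspindlin, was at 21.1, 23.4 and 23.9 CPM with DMSO and 31.0, 34.9 and 37.6 CPM with CX-5461, a rise of 0.59 ± 0.08 (adjusted p = 9.04e-06). Neither gene had overlapping groups. Across the mitotic group 11 of 11 tested members had groups that did not overlap, against 76.1% of all genes. Within groups CX-5461 replicate 3 was the highest treated library for all 11, and DMSO replicate 3 the highest control library for 9 of 11. How often these libraries were the highest among all genes was not counted. Among transport kinesins the highest treated library was replicate 1 for 6, replicate 3 for 4 and replicate 2 for 1.

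**Figure D2:**
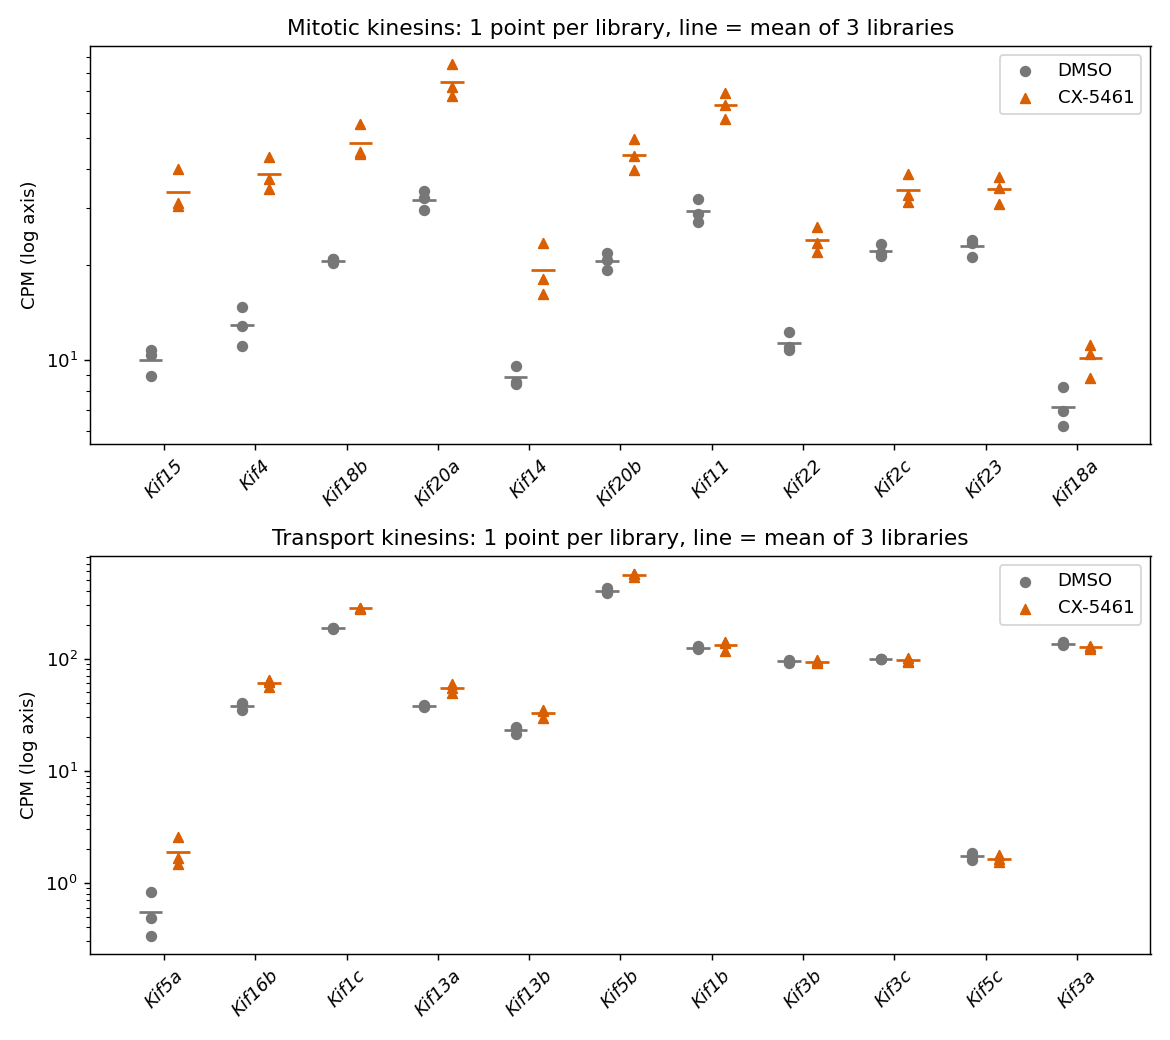
CPM of each tested mitotic (top) and transport (bottom) kinesin on a log axis, with 1 point per library and a line at the mean of the 3 libraries of a group. The groups are apart for all 11 mitotic genes, whereas Kif1b, Kif3b, Kif3c and Kif5c overlap among the transport genes.

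Kinesin-1, the main carrier of membrane cargo toward the cell edge, has 3 heavy-chain genes. Kif5b, the form found in most cells and known to move melanosomes outward, was at 384.8, 392.4 and 425.6 CPM with DMSO and 563.9, 537.4 and 565.9 CPM with CX-5461, a rise of 0.47 ± 0.05 (adjusted p = 2.54e-07). Kif5a, known as a neuronal form, was at 0.819, 0.482 and 0.335 CPM with DMSO and 2.57, 1.67 and 1.46 CPM with CX-5461, a rise of 1.81 ± 0.34 (adjusted p = 0.000161). That change rests on 6 to 15 counts per DMSO library and 29 to 57 per CX-5461 library. Of the 5 neuronal markers Tubb3 and Map2 rose as well, and the other 3 had too few counts to be tested. Map2 spans 267.3 kb, and its rise of 1.11 was 0.25 with the offset for genomic span (adjusted p = 0.129). Kif5c, also known from neurons, was at 1.73 ± 0.13 and 1.64 ± 0.13 CPM (SD; adjusted p = 0.755), and was called lower, at -0.58, with the offset for genomic span (adjusted p = 0.0200). Of the 3 genes 2 were thus called higher, where 37.2% of all genes were, and Kif5c, with 31 to 34 counts per library, was not called. Their changes were not tested against each other.

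None of the 3 tested kinesin-2 genes passed, where 73.7% of all genes did. Kif3a and Kif3b encode the pair of motors that builds cilia and carries organelles, and Kif3c a relative that pairs with Kif3b or itself. Kif3a was at 135.1 ± 4.21 and 126.2 ± 3.10 CPM (SD; adjusted p = 0.0665), with every treated library below every control library. It was called lower with library totals only (-0.17, adjusted p = 0.00340), with an offset for GC content (-0.13, adjusted p = 0.0169), with the GC offset plus a replicate block (-0.13, adjusted p = 0.0267) and without CX-5461 replicate 1 (-0.12, adjusted p = 0.0428). Kif3b was at 94.3 ± 3.20 and 93.5 ± 2.90 CPM (adjusted p = 0.842), and Kif3c at 99.0 ± 0.89 and 97.3 ± 4.40 CPM (adjusted p = 0.651). Reads of Kif3c cannot be told from those of 1110002L01Rik, an antisense gene that overlaps its exons by 2617 bases and fell by 0.70 on the log2 scale, unless strand was used. Kif17, a kinesin-2 of dendrites, had 0 to 1 counts in DMSO libraries and 3 to 5 in CX-5461 libraries and was not tested.

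Of 5 tested kinesin-3 motors, which carry vesicles and endosomes, 4 rose, where 37.2% of all genes were called higher. Of these Kif13a, Kif13b and Kif16b were not higher with the offset for genomic span, as given below. Kif1c, which moves secretory vesicles and integrins, was at 186.8, 185.3 and 186.6 CPM with DMSO and 279.9, 282.4 and 285.2 CPM with CX-5461, a rise of 0.60 ± 0.04 (adjusted p = 2.71e-09) with little spread in either group. Kif16b, an endosome motor that binds phosphoinositide membranes, was at 39.8, 39.2 and 35.1 CPM with DMSO and 64.9, 56.2 and 61.6 CPM with CX-5461, a rise of 0.68 ± 0.07 (adjusted p = 2.29e-07). Kif13a, which in melanocytes carries recycling endosomes that feed melanosomes, was at 38.7, 38.1 and 37.1 CPM with DMSO and 54.4, 48.9 and 59.2 CPM with CX-5461, a rise of 0.51 ± 0.07 (adjusted p = 6.00e-06). In each of these genes the groups were separate. Kif13b, its close relative, was at 24.4, 23.9 and 21.4 CPM with DMSO and 34.8, 29.6 and 34.0 CPM with CX-5461, a rise of 0.50 ± 0.08 (adjusted p = 4.07e-05). Kif1b, a carrier of mitochondria and synaptic vesicle precursors, was at 124.8 ± 3.76 and 131.3 ± 12.2 CPM (SD; adjusted p = 0.267). Without CX-5461 replicate 2 it was called higher, at 0.15 (adjusted p = 0.00332). Kif1a, the neuronal synaptic vesicle motor, had 3 counts in 1 CX-5461 library and none elsewhere.

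Several transport genes are long, and long genes as a class were higher in the treated libraries. Over all tested genes the median log2 change was -0.01 for spans of 30 to 100 kb, 0.32 for 100 to 200 kb and 1.11 above 200 kb. Kif16b spans 284.1 kb, Kif13a 180.8 kb and Kif13b 162.4 kb. With the span trend removed, Kif16b was called lower, at -0.22 (adjusted p = 0.00313), and Kif13a and Kif13b did not pass, at -0.09 (adjusted p = 0.191) and -0.04 (adjusted p = 0.648). Kif1b, at 131.4 kb, was then called lower, at -0.32 (adjusted p = 3.26e-05). Kif1c and Kif5b span 31.4 and 41.2 kb, and their rises were as large with the offset, at 0.67 and 0.51. The mitotic kinesins span 8.66 to 101.5 kb, and with the offset their median was 1.13 in place of 1.11. The part of span in the changes of single genes was not tested beyond this.

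**Figure D3:**
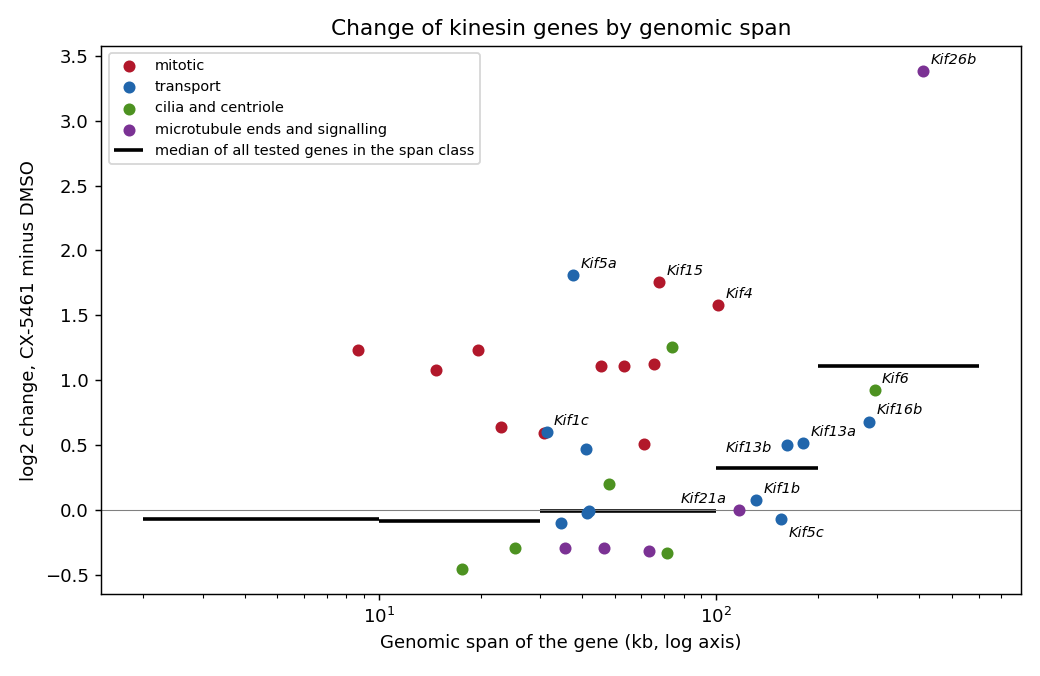
Log2 change with CX-5461 (y axis) against the genomic span of each tested kinesin gene in kb (log x axis), coloured by role, with black lines at the median of all tested genes in 5 span classes. Mitotic genes lie above the line of their class, whereas Kif16b, at 0.68, and Kif6, at 0.93, lie below the line of 1.11 for genes over 200 kb.

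Kinesins of cilia and centrioles did not move as a group. Kif24, which holds back cilium formation at the mother centriole, was at 3.55, 3.76 and 3.74 CPM with DMSO and 8.60, 7.65 and 10.1 CPM with CX-5461, a rise of 1.26 ± 0.14 (adjusted p = 7.31e-07), or 2.39-fold. Kif7, which sits at the cilium tip and regulates Hedgehog signalling, was at 44.96, 45.4 and 41.9 CPM with DMSO and 33.5, 29.4 and 33.2 CPM with CX-5461, and fell by 0.46 (adjusted p = 1.57e-05). The 2 genes thus changed in opposite directions, each without overlap of the groups. Kif7 overlaps 51 exonic bases of Ticrr on the other strand, a gene that rose by 1.42. Among the motors known from motile cilia, Kif6 rose from 2.12 ± 0.23 to 4.02 ± 0.66 CPM (SD; 0.93 on the log2 scale, adjusted p = 0.000295), but it spans 294.7 kb and stood at 0.005 with the span offset (adjusted p = 0.984). Kif9 was at 7.98 and 9.14 CPM (adjusted p = 0.113), Kif19a at 4.12 and 3.36 CPM (adjusted p = 0.165) and Kif27, the relative of Kif7, at 1.05 and 0.808 CPM (adjusted p = 0.343).

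Of the 5 kinesins of microtubule ends and signalling, 3 fell, 1 rose and 1 was not called, where 36.5% of all genes fell and 37.2% rose. Kif21b, which pauses microtubule growth, was at 531.7, 534.9 and 523.0 CPM with DMSO and 460.4, 388.8 and 443.0 CPM with CX-5461, and fell by 0.30 (adjusted p = 0.000150). Kif2a, a microtubule depolymerase of interphase cells and spindle poles, was at 68.2, 66.5 and 70.6 CPM with DMSO and 56.4, 54.2 and 53.8 CPM with CX-5461, and fell by 0.32 (adjusted p = 4.38e-05). The change of Kif2a was -0.09 with the GC offset (adjusted p = 0.0928), and its exons overlap by 1229 bases those of Dimt1 on the other strand, which fell by 0.99. Its relative in mitosis, Kif2c, rose, so the depolymerases went opposite ways. Kif21a, a paralog of Kif21b, was at 133.8 ± 4.82 and 133.2 ± 12.3 CPM (SD; adjusted p = 0.945). With the span offset it was called lower, at -0.32 (adjusted p = 4.71e-05).

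Kif26a and Kif26b, atypical kinesins that bind microtubules without working as motors and act in signalling, diverged. Kif26a was at 20.4, 20.1 and 19.3 CPM with DMSO and 15.5, 15.6 and 17.8 CPM with CX-5461, and fell by 0.29 (adjusted p = 0.00533). Kif26b went from 0.244 ± 0.040 to 2.59 ± 0.69 CPM (SD), the largest change of any kinesin, at 3.38 ± 0.34 (adjusted p = 2.41e-07). It rests on 4 to 6 counts per DMSO library and 36 to 75 per CX-5461 library. Kif26b (chromosome 1) spans 410.1 kb, and its change was 2.24 with the span offset (adjusted p = 2.70e-05). Its exons also overlap those of the antisense gene Gm16564 by 909 bases. Kif12 had no count in any library.

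Levels can be compared between genes only per length, here as CPM per kb of exon with the spread over 3 libraries. With DMSO, Kif5b was the most abundant kinesin, at 50.2 ± 2.72 CPM per kb (SD), followed by Kif21b at 43.5 ± 0.51, Kif3a at 37.7 ± 1.16 and Kif1c at 25.6 ± 0.11. With CX-5461, Kif5b was at 69.6 ± 1.99 CPM per kb and Kif1c at 38.8 ± 0.36 was the second, ahead of Kif21b at 35.4 ± 3.07 and Kif3a at 35.2 ± 0.87, which did not differ beyond their spread. The most abundant mitotic kinesin, Kif20a, moved from the tenth to the sixth place, at 7.38 ± 0.49 and 17.3 ± 2.11 CPM per kb. Summed per kb, mitotic kinesins made up between 11.7% and 12.7% of all kinesin transcript with DMSO, and between 20.1% and 23.4% with CX-5461. The share of transport kinesins was 55.9% to 56.4% with DMSO and 54.8% to 57.2% with CX-5461. For the microtubule-end group it was between 26.4% and 27.3% with DMSO, and between 18.4% and 20.2% with CX-5461. No test was made of these shares, since they sum chosen members.

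**Figure D4:**
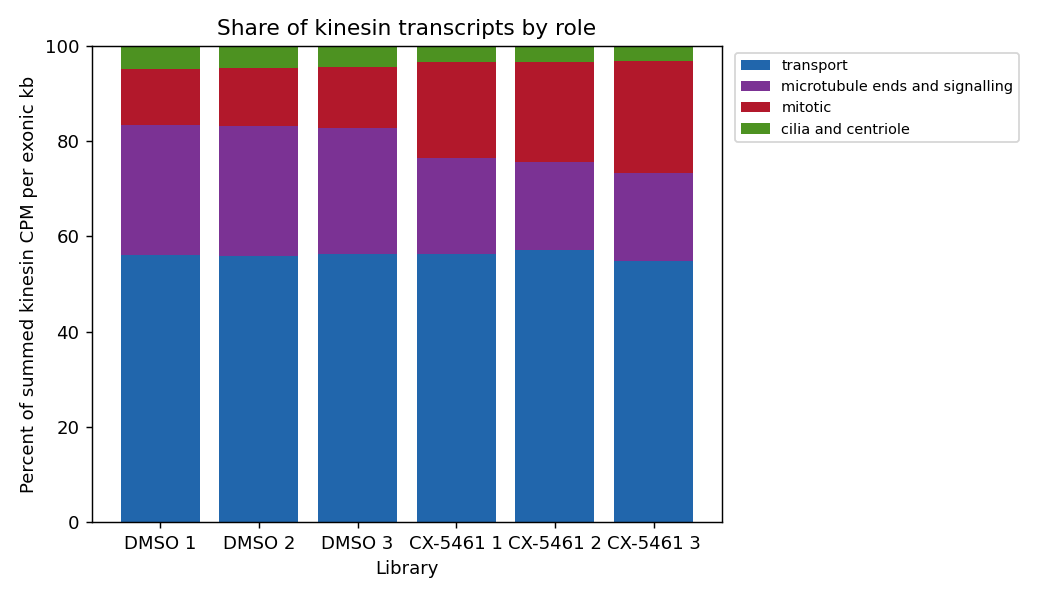
Share of each role group (colours) in the summed kinesin level per exonic kb (y axis, percent), for the 3 DMSO and 3 CX-5461 libraries (x axis). The mitotic share lies between 11.7% and 12.7% with DMSO, and between 20.1% and 23.4% with CX-5461.

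Genes that work with these motors were taken from lists made in the same way. Of 5 kinesin motors without a Kif number, 4 rose and 1 fell, where 37.2% of all genes were called higher and 36.5% lower. Kifc1, the minus-end motor that focuses spindle poles, rose by 1.43 ± 0.07 (adjusted p = 5.71e-11), though it and Kifc5b are close copies that can share reads, and Kifc2 fell by 1.03 (adjusted p = 3.44e-06). Of 18 spindle and midzone partners 17 rose and Ckap5 was not called, where 37.2% of all genes were called higher, and the median log2 change was 0.94. Among the 17, Numa1 rose by 0.13 but was at 0.01 with the span offset (adjusted p = 0.824). Ckap5 was called lower with that offset, at -0.29 (adjusted p = 1.56e-05). The largest rise was that of Cit, the citron kinase that binds Kif14, from 3.03 ± 0.28 to 16.4 ± 4.56 CPM (SD), at 2.45 ± 0.20 (adjusted p = 1.83e-08). Cit spans 163.7 kb and rose by 1.91 with the span offset.

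Of 19 light chains and adaptors, 3 were not found under the symbols used and 1 was not tested, and of the other 15 tested, 6 rose, 6 fell and 3 were not called (median log2 change 0.01), shares close to the 37.2% higher and 36.5% lower of all genes. Mapk8ip1, a scaffold that links cargo to kinesin-1 and is also known as JIP1, rose by 1.43 ± 0.04 (adjusted p = 3.50e-13), from 132.7 ± 3.38 to 358.1 ± 9.48 CPM. Klc2, a light chain of kinesin-1, fell by 0.89 (adjusted p = 2.51e-10), from 88.1 ± 1.11 to 47.5 ± 0.84 CPM, while the heavy chain Kif5b rose. The other light chains differed from Klc2 in size of change. Klc1, at 222.1 and 206.9 CPM, fell by 0.10 (adjusted p = 0.0458) and did not pass with the span offset (adjusted p = 0.0619). Klc3 fell by 0.58 (adjusted p = 0.00242) and Klc4 was not called (adjusted p = 0.193). Of 22 genes of cytoplasmic dynein and dynactin, the motor of the opposite direction, 8 rose, 5 fell and 9 were not called (median log2 change 0.07), against 37.2% higher and 36.5% lower among all genes. There Nde1 rose by 0.60 ± 0.05 (adjusted p = 6.83e-08), and Ndel1, its paralog, fell by 0.62 (adjusted p = 1.93e-08). None of the 22 rose 2-fold, as 11.7% of all genes did.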

How the data were processed

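RNA of 6 B16 libraries, 3 treated with DMSO and 3 with CX-5461, was analysed from 1 deposited table of whole-number counts per gene, which the authors had not normalized. Groups and replicate numbers came from the sample titles. Per the submitters' processing notes the build was GRCm38 (mm10). Aligner, counter and use of strand: not given in the sources used here. The libraries held 17573990 to 22908309 counts each, of which 3 equal 0.135 to 0.173 CPM, a floor for counting error only.

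filterByExpr (minimum count 10) left 12198 of 22740 genes, which were scaled by TMM and tested two-sided with edgeR 4.0.16 (quasi-likelihood F test, R 4.3.3) with treatment as the only term. Benjamini-Hochberg adjustment ran over all tested genes, with a call below 0.05. Standard errors were derived from the log2 change and its F statistic. On simulated counts for this comparison (12198 genes), 31 of 50 genes with a 1.25-fold change were recovered. For 1.5-fold changes it was 41 of 50 and for 2-fold changes 46 of 50, while 5 of 172 calls were false. The simulation changed few genes and gave all genes and both groups the same spread. In the data 73.7% of genes were called and CX-5461 replicates differed more than DMSO replicates, so these rates need not hold for them. Gene models were those of GENCODE M21 (GRCm38) and promoters those of RefSeq (GRCm38.p6).

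Members, role lists and partner lists were chosen with earlier results of these data known. Values by library are given for every tested mitotic member, every called transport member and other called members whose higher group averaged 5 CPM or more. From each partner list the largest called rise and fall at that level are named. Alternatives were RLE or upper-quartile scaling, scaling by library totals only, 2 other filters, DESeq2 1.42.0, limma-voom (limma 3.58.1), a replicate block, offsets for GC content and genomic span with and without that block, an adjusted p of 0.01, 2 changes to the role lists, and each library left out in turn. An offset here is a smooth trend, in each library, of the deviation of log2 CPM from the gene's mean on that property, removed in the fit.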

Additional observations from a re-analysis of the deposited data

How the results depend on the processing

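All 11 tested mitotic kinesins stayed called and higher in each of the 18 refits, and 19 of the 24 called kinesins kept call and direction in all of them. The exceptions were Kif13a, Kif13b, Kif16b, Kif6 and Kif2a. With the genomic span offset (with a replicate block added in brackets) the log2 changes took the opposite sign for Kif13a at -0.088 (-0.091), Kif13b at -0.038 (-0.039), Kif16b at -0.22 (-0.22), Kif1b at -0.32 (-0.32), Kif3b at 0.023 (0.023) and Kif3c at 0.011 (0.011). The median of the transport kinesins was then -0.038 (-0.039), and it was 0.40 with library totals only and 0.076 with Kif21a and Kif21b added to that list. With Kif2a added to the mitotic list, 11 of 12 members were called higher and 1 lower, with a median of 1.11. Of 6 called transport kinesins 6 were higher in the main test, against 3 higher and 3 lower with the span offset. Kif21a, close to 0, turned to 0.003 with upper-quartile factors, and ranged from -0.085 to 0.049 as single libraries were left out. Kif3b ranged from -0.043 to 0.013 in the same way. Kif2a lost its call with the GC offset (-0.09, adjusted p = 0.0928) and with that offset and the replicate block (-0.09, adjusted p = 0.137). The cause of these shifts was not tested. Same-numbered DMSO and CX-5461 libraries did not deviate together (correlations of 0.04, 0.004 and -0.01), so the numbers were not taken as pairs. The replicate block alone changed no call among the kinesins and gave 4536 genes higher and 4464 lower in all. Leaving out 1 library left 11 mitotic and 6 to 7 transport calls, with medians of 1.02 to 1.18 and 0.44 to 0.49. The filter on low counts kept Kif1a and Kif17 out of the test. Without it 13 transport kinesins were tested and 6 called, as before. Kif2b and Kif12 had no counts.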
